A study of Drosophila simulans x Drosophila sechellia and Drosophila simulans x Drosophila mauritiana and Drosophila mauritiana x Drosophila simulans with 63 samples.

Results

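Late stage 5 embryos from reciprocal crosses between *Drosophila sechellia* and *Drosophila mauritiana* were compared gene by gene, to ask which genes have a total transcript level that follows the species of the mother. The *sec* x *mau* group held 6 single F1 hybrid embryos with a *D. sechellia* mother and a *D. mauritiana* father, and the *mau* x *sec* group held 6 with the parents the other way round. Each embryo therefore carries 1 autosomal set of each species whatever the direction. The egg, the mitochondria and, in sons, the X and Y chromosomes come from different species in the 2 directions. The parts of these cannot be told apart here. The members are the 4627 autosomal genes, of 8945 autosomal and 10555 genes in the table for this species pair, whose total of both alleles averaged 10 or more over the 12 embryos. The 12 embryos are part of a series of 63 RNA-seq libraries from single embryos of 3 species and their crosses. The parental embryos used for comparison are 3 of *D. sechellia* and 3 of *D. mauritiana* at late stage 5 and as many at stage 2. A further 3 stage 2 embryos each come from the (*sec* x *mau*) x *sec* and (*mau* x *sec*) x *mau* crosses, laid by F1 mothers. For a last comparison, 12 late stage 5 embryos come from the *sim* x *mau* and *mau* x *sim* crosses of *D. simulans* and *D. mauritiana*. The labels give 3 XY and 3 XX embryos in each of *sec* x *mau*, *mau* x *sec* and *mau* x *sim*. In *sim* x *mau* they give 2 XY embryos and the rest XX, and they give no sex for parental and stage 2 embryos. The *D. sechellia* stock is wild-type, the *D. mauritiana* stock carries w1 and the *D. simulans* stock w501. For each species 1 stock was used, and eggs came from mothers aged 4-14 days. Late stage 5 was set by morphology, after cellularization and before gastrulation. Whether the embryos of a group came from separate vials is not given in the sources used here, so p-values measure the spread between single embryos.

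An insect egg is loaded by its mother with messenger RNA, and the first divisions run on this supply while the embryo's own genome is silent. The embryonic genome is then switched on and maternal transcripts are cleared, each gene at its own time. By late stage 5, the cellular blastoderm, segmentation and dorsoventral genes are transcribed from both parental genomes, whereas a remainder of the maternal supply persists. In hybrids that remainder carries only the mother's allele, whereas new transcripts can carry either allele.

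The values are reads at variant sites of a gene, summed per allele and scaled by upper quantile normalization, and a total is the sum of both alleles from reads mapped to *D. sechellia*. A call in both mappings means an adjusted p below 0.05 with the same sign when reads are mapped to either genome (limma on log2(total + 1), two-sided, Benjamini-Hochberg over all 5495 genes fitted). Log2 differences are *sec* x *mau* minus *mau* x *sec*, or *D. sechellia* minus *D. mauritiana*, on that scale, with SE. Reads at variant sites, recovered from the scaled values of the *D. sechellia* mapping, numbered 2955467-5028528 per embryo in *sec* x *mau* and 2591620-4454454 in *mau* x *sec*. Total reads per library are not given by these values. Spearman's rho over the members was 0.982-0.990 among the *sec* x *mau* embryos, 0.985-0.992 among the *mau* x *sec* embryos and 0.938-0.950 between the crosses. All 9 blastoderm markers (among them *eve*, *ftz* and *sna*) were present in every embryo, and their summed signal was 14331-20354 in *sec* x *mau* and 14275-18922 in *mau* x *sec*. The 3 yolk protein genes, *Mhc* and the sperm gene *dj* were at 0 in all 12 embryos, and the neural gene *elav* read 84.4-133 in *sec* x *mau* and 89.4-135 in *mau* x *sec*.

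The sex labels of *mau* x *sec* went against the X-linked alleles or the *Sxl* and *msl-2* levels in 4 of 6 embryos. The father's allele made up 0.470-0.666% of the reads of 65 X-linked mostly zygotic genes in the 3 *sec* x *mau* embryos labelled XY and 47.1-47.8% in those labelled XX. In *mau* x *sec* it made up 0.493%, 50.4% and 50.6% in the embryos labelled XY, and 0.618%, 40.1% and 50.2% in those labelled XX. For the embryo at 40.1% the alleles went with its XX label. Its *Sxl* and *msl-2* levels of 451 and 1443 lay within the ranges of the *sec* x *mau* embryos labelled XY, so its sex is unclear. Without these 4 of the 6 *mau* x *sec* embryos, an alternative chosen after seeing the data, 1019 in place of 1985 members were called. Of these, 684 in place of 984 followed the mother and 12 in place of 77 went against it. The part of the smaller *mau* x *sec* group in these lower counts was not tested.

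Of the 4627 members, 1985 (42.9%) differed between the directions of the cross in the *D. sechellia* mapping, 965 (20.9%) higher and 1020 (22%) lower in *sec* x *mau*. Which direction held more calls changed with the scaling and the embryos. With TMM factors 1034 were higher and 984 lower, with 1035 and 966 in edgeR and 1062 and 993 in DESeq2. The counts were 529 and 765 with embryos labelled XX only, and 720 and 531 with those labelled XY only. By their reads, the *mau* x *sec* embryos under each label were of both sexes, so the fits by label do not compare embryos of a single sex. In both mappings 1672 members (36.1%) were called, 803 (17.4%) higher and 869 (18.8%) lower. The 6 and 6 embryos did not overlap for 1121 members (24.2%). As whole embryos were sequenced, fewer cells of a type and less RNA per cell cannot be told apart. Most differences were small: the median absolute log2 difference was 0.60 among the 1985 called members, 445 members called in both mappings differed by at least 2-fold, 106 by at least 4-fold and 42 by at least 8-fold. Called members lay on every autosome, with 40.1% of 1000 members called on 2L, 44.5% of 1093 on 2R, 44.5% of 1088 on 3L, 42.5% of 1406 on 3R and 42.5% of 40 on chromosome 4.

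The parental reads come from an earlier data set per the methods, and the part of the collection in the species differences was not tested. Between the parental species at late stage 5, 1864 of 4699 autosomal genes (39.7%) were called, 816 (17.4%) higher and 1048 (22.3%) lower in *D. sechellia*. A called member follows its mother when the cross and the species difference have the same sign. Of the 1985 called members, 984 did so (21.3% of all members), 77 (1.66%) went against the mother and 924 (20%) had no called species difference. Of those with a called species difference, 92.7% thus followed the mother. These counts take both differences from the *D. sechellia* mapping. The study removed genes whose reads mapped with bias between the genomes. No gene was removed for this here, and the part of mapping bias in these counts was not tested. Without *D. sechellia* stage 5 replicate 3, 1072 followed the mother and 171 went against it, and without each of the other parental stage 5 embryos 763-842 followed it and 51-57 went against it. Of the 1672 members whose cross difference was called in both mappings, 882 (52.8%) followed the mother by the species call of the *D. sechellia* mapping. This share counts members with or without a called species difference. It was 77.3% at 2-fold or more, 94.3% at 4-fold or more, and all 42 at 8-fold or more. When the species difference also had to be called in both mappings, 801 of the 1672 (47.9%) followed the mother and 47 went against it.

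**Figure D1:**
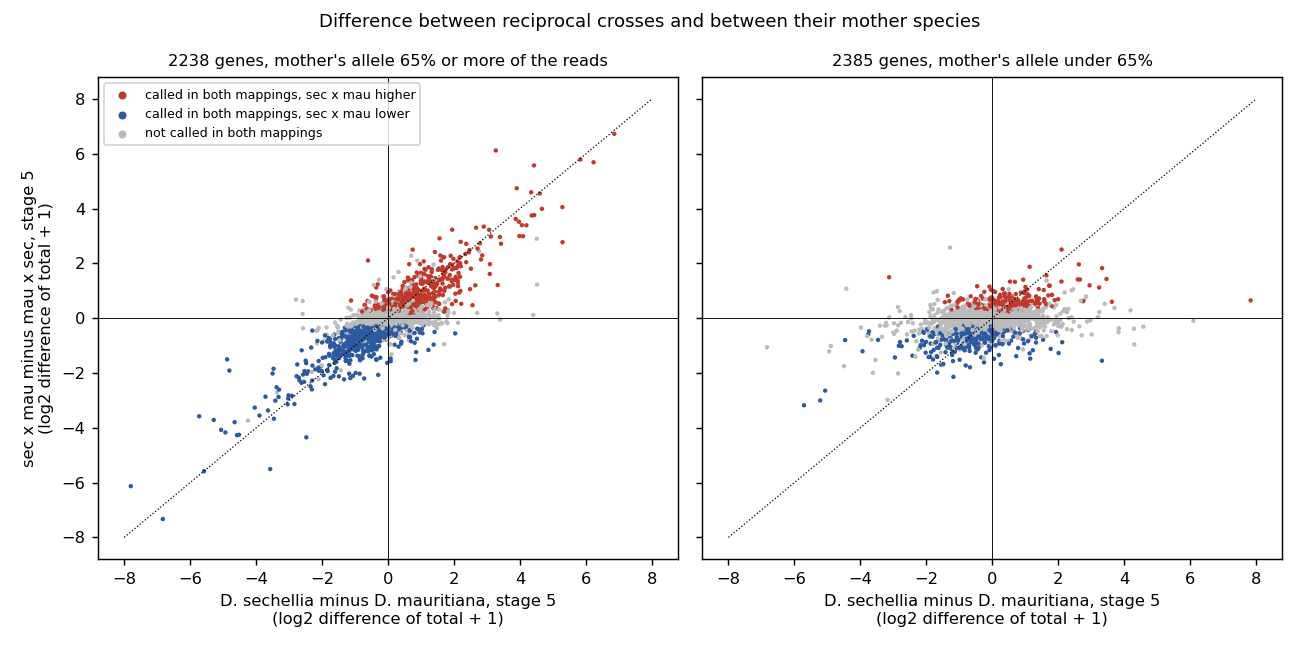
Log2 difference between the crosses (vertical) against that between the species at stage 5 (horizontal), 1 point per member, for the 2238 members whose mother's allele held 65% or more of the reads (left) and the 2385 under 65% (right); 4 members had too few reads for a share. Red and blue points were called in both mappings, higher and lower in *sec* x *mau*, and the dotted line marks equal differences. Most points at right lie near the horizontal axis. For called species differences of at least 2-fold, the median ratio of cross to species difference was 0.61-0.81 over classes of the mother's share at left. It was 0.12-0.25 over those at right.

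The largest difference upward was that of *pyd3*, which encodes the last enzyme of pyrimidine breakdown. The table assigns it to arm 3R and to scaffold 6 of the *D. sechellia* genome, with a listed interval of 3640280-3640383 on the minus strand. Totals of *pyd3* had a lowest, median and highest value of 927, 1266 and 1747 in *sec* x *mau*, against 5.44, 9.82 and 19.0 in *mau* x *sec*. Every *sec* x *mau* embryo thus lay far above every *mau* x *sec* embryo (log2 difference 6.73 ± 0.25, limma adjusted p = 4.1e-12). The mothers' species differed alike at stage 5, with 1438, 1361 and 1705 in *D. sechellia* and 18.7, 6.80 and 12.9 in *D. mauritiana*. At stage 2 the gene read 265, 374 and 306 in *D. sechellia* eggs and 0.885, 1.92 and 1.00 in *D. mauritiana* eggs.

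*Mal-A5*, a maltase, was the largest difference downward. It lies on arm 2R, on scaffold 1 with a listed interval of 1992491-1992701 on the plus strand. Totals of *Mal-A5* were 5.59, 11.5 and 15.6 (lowest, median and highest) in *sec* x *mau* and 1707, 1965 and 2193 in *mau* x *sec*, with no overlap between the groups (log2 difference -7.33 ± 0.18, limma adjusted p = 6.3e-14). The species showed the same gap at stage 5, with 38.7, 20.3 and 5.65 in *D. sechellia* and 2137, 1886 and 2057 in *D. mauritiana*. At stage 2, by contrast, *D. sechellia* eggs held 401, 381 and 413 and *D. mauritiana* eggs 865, 985 and 877, a log2 difference of only -1.19. The level of *Mal-A5* was thus lower at stage 5 than at stage 2 in *D. sechellia* and higher in *D. mauritiana*.

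**Figure D2:**
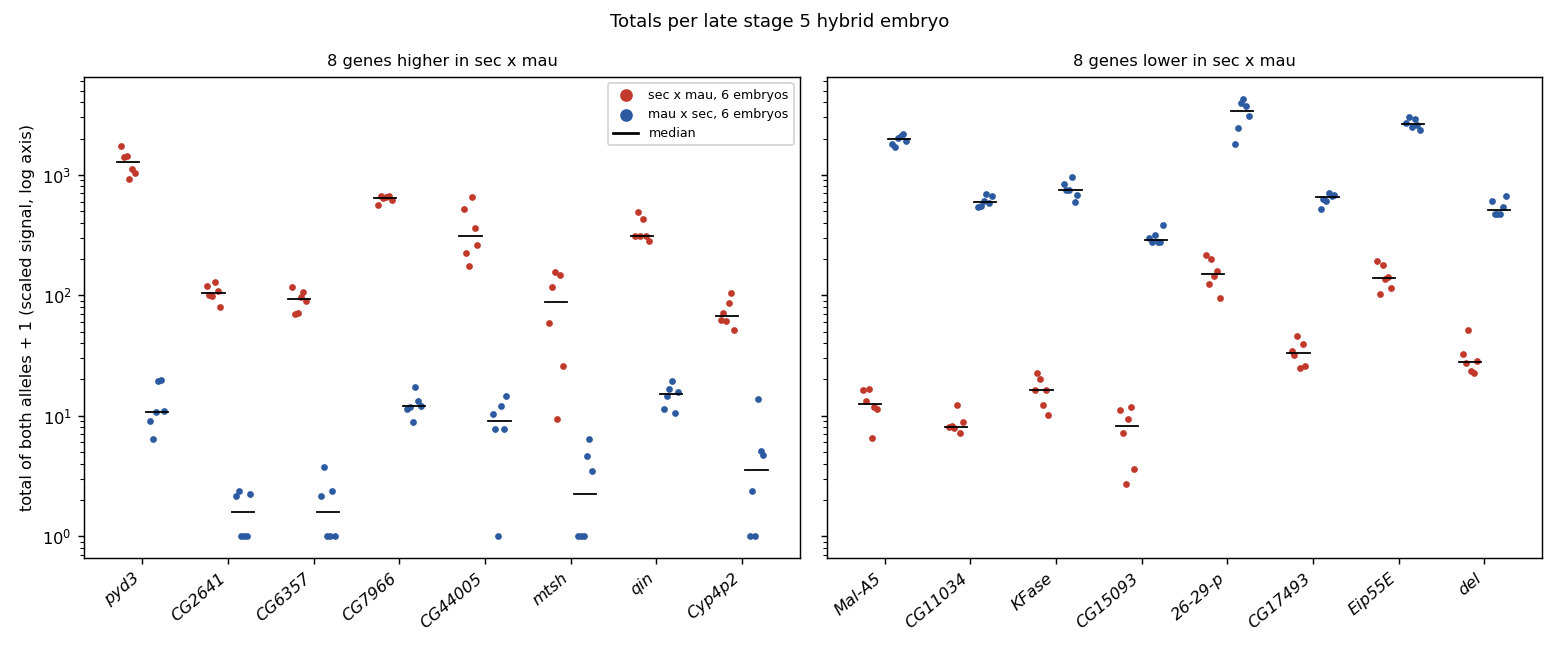
Totals of both alleles + 1 (scaled signal, log axis) in each embryo for the 8 members with the largest positive (left) and the 8 with the largest negative (right) log2 difference among those called in both mappings with no overlap. Red points are *sec* x *mau* embryos, blue points *mau* x *sec* embryos and black bars medians of 6, and no gene has a red and a blue point at the same height.

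*KFase*, kynurenine formamidase of tryptophan breakdown, read 9.13, 15.3 and 21.5 in *sec* x *mau* and 589, 749 and 951 in *mau* x *sec* (log2 difference -5.58 ± 0.19). *Eip55E*, a cystathionine gamma-lyase, read 101, 137 and 191 in *sec* x *mau* and 2365, 2635 and 3042 in *mau* x *sec* (log2 difference -4.25 ± 0.14). *CG7966*, related to selenium-binding proteins, read 557, 645 and 667 in *sec* x *mau* and 7.82, 11.0 and 16.4 in *mau* x *sec* (log2 difference 5.69 ± 0.15). None of these 3 genes had overlapping groups, and all 3 followed the mother's species at stage 5. *CG15093* and the cysteine proteinase gene *26-29-p* fell as well in *sec* x *mau*, to medians of 7.27 and 150.3, against 287 and 3374 in *mau* x *sec*. *CG15093* had the opposite order in eggs, with 967, 479 and 614 in *D. sechellia* and 387, 263 and 306 in *D. mauritiana*.

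*CG11034* (log2 difference -6.13) and *CG17493* (-4.27) were lower in *sec* x *mau*, and *CG44005* (5.57) was higher, each without overlap and with the mother's species. *CG2641* read 79.5, 103 and 127 in *sec* x *mau* and 0, 0.578 and 1.36 in *mau* x *sec*, and *CG6357* read 68.7, 92.6 and 117 in *sec* x *mau* and 0, 0.578 and 2.72 in *mau* x *sec*. *mtsh* spread over 8.39, 86.8 and 154 in *sec* x *mau* and 0, 1.23 and 5.42 in *mau* x *sec*. In *mau* x *sec* these 3 genes rest on a few reads per embryo and were at 0 in 3 embryos each, so that their fitted difference depends on the added 1 and no fold is given.

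The allele values show which copy carried these differences. In *sec* x *mau* the mean signal of *pyd3* was 1272 from the mother's *sec* allele and 6.04 from the father's *mau* allele, and in *mau* x *sec* it was 8.11 from the mother's *mau* allele and 3.62 from the father's *sec* allele. The *sec* allele of *pyd3* was thus high when it came through the egg and near 0 when it came through sperm. For *Mal-A5* the *mau* allele averaged 1.09 in *sec* x *mau*, from the father, and 1954 in *mau* x *sec*, from the mother. Over the 42 members called in both mappings with at least 8-fold difference, the mother's allele differed in the direction of the total by at least 2-fold in all 42, and the father's allele in 5, with 6 differing by as much in the opposite direction. Over the 445 members with at least 2-fold difference these counts were 396, 115 and 59. Both sets were selected on the total, which is the sum of these same alleles. The mother's allele held a median of 87.5% of the reads in the 42 and 81.0% in the 445, as the mean of both crosses. Its shift with the total was thus largely fixed by the selection, and these counts are a description.

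In pooled reads of the members, the mother's allele took 77.7-81.5% in *sec* x *mau* and 77.3-78.5% in *mau* x *sec*. Over the 607 mostly zygotic members, whose level at stage 5 was more than 8-fold that at stage 2 on the log2(level + 1) scale in the mean of the parental species, the father's allele took 45.0-45.3% in *sec* x *mau* and 49.2-50.3% in *mau* x *sec*. The median member had 63.9% of its reads from its mother's allele, taken as the mean of the shares in both crosses. This median was 75.9% for the 1671 members called in both mappings that had a share, against 58.4% for the 2952 others. Shares and totals come from the same reads and are not independent measures.

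Members with more of their reads from the mother's allele were called more often, with little difference between bins above 65%. In both mappings, 17.4% of the 1424 members with under 55% of reads from the mother's allele were called, 30.4% of 961 at 55-65% and 50.5% of 543 at 65-75%. Of the members at 75-85%, 85-95% and above 95%, 52.5% of 539, 49.5% of 685 and 49.9% of 471 were called. With shares taken from the *D. mauritiana* mapping the lowest bin had 17.3% and the highest 50.9%. The median of the mean total differed over these bins as well, with 239 in the lowest, 174 in the next and 798 in the highest, and its part in the share of calls was not tested.

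The cross difference was also a larger part of the species difference in members with a larger share from the mother's allele, up to 85-95%. For members with a called species difference of at least 2-fold, the ratio of the cross to the species log2 difference had a median of 0.12 in the 275 members under 55%, 0.25 in 185 at 55-65%, 0.61 in 110 at 65-75%, 0.73 in 109 at 75-85%, 0.81 in 135 at 85-95% and 0.77 in 109 above 95%. A ratio of 1 would mean that a hybrid differs by as much as its mother's species does. Among the 1829 members with a called species difference, the 984 that followed the mother had a median mother's share of 80.4%, and the 768 not called between the crosses had 56.0%.

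**Figure D3:**
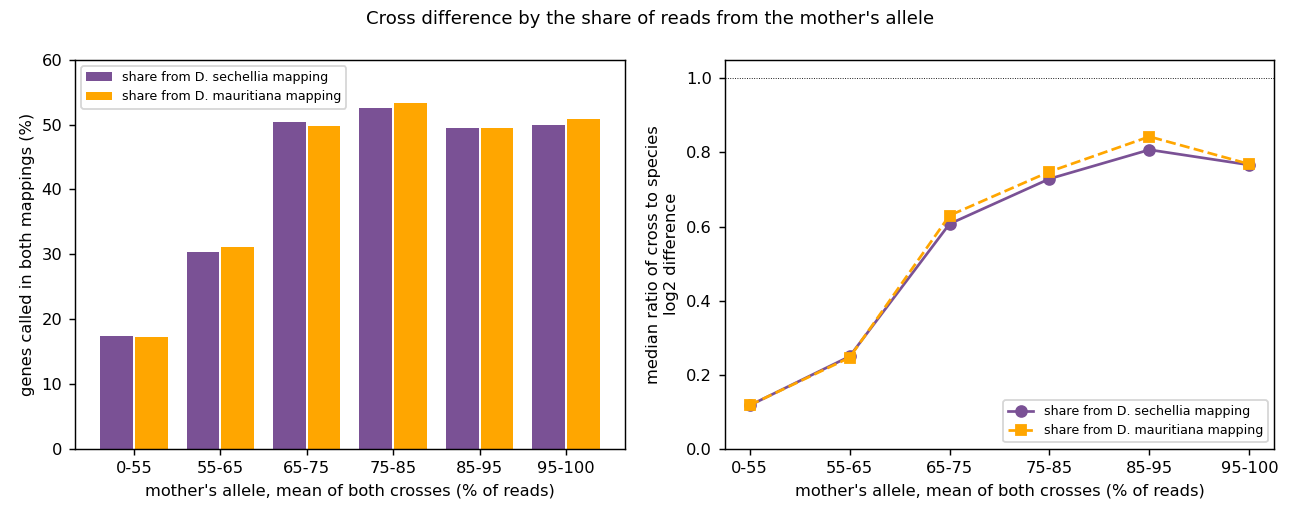
Left, percent of members called in both mappings, and right, median ratio of the cross to the species log2 difference (members with a called species difference of at least 2-fold), by the percent of reads from the mother's allele. Purple and orange use allele shares from the *D. sechellia* and the *D. mauritiana* mapping, and both measures are lowest under 55% and change little above 75%.

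The differences between the crosses were closer to those between species at stage 5 than at stage 2. Over the 4030 members tested at both stages, Spearman's rho of the cross difference was 0.56 with the species difference at stage 5 and 0.18 with that at stage 2. These points are genes of the same libraries, so rho is a description only. At stage 2, 1113 of 4188 autosomal genes (26.6%) were called between the species, a count that was 517 without *D. mauritiana* replicate 3, 616 without *D. sechellia* replicate 1 and 729 without *D. sechellia* replicate 2. The counts that rest on these calls were not recomputed without those embryos. When the stage 2 difference stood in for that at stage 5, 393 of the 1985 called members followed the mother and 131 went against it. The 882 members called in both mappings that followed the mother at stage 5 rest on the species call of the *D. sechellia* mapping. Of these 882, 834 were tested at stage 2. There 272 (32.6%) had a called difference of the same sign, 36 of the opposite sign and 526 (63.1%) none.

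A test of the change from stage 2 to stage 5 between the species, added after the values were seen, called 992 of 4677 autosomal genes (21.2%), 457 (9.77%) with the higher and 535 (11.4%) with the lower change in *D. sechellia*. Of the 882 members that followed the mother, this change differed in the direction of the cross in 394 (44.7%) and in the opposite direction in 15. Of the 100 with at least 4-fold difference between the crosses it did so in 70 and 5. This change shares the stage 5 parental embryos with the species difference that defines the 882 members, so these shares are a description. *26-29-p* was such a member: it read 8811, 9038 and 10795 in *D. sechellia* eggs and 9132, 7826 and 8390.1 in *D. mauritiana* eggs, but 199, 157 and 237 in *D. sechellia* and 1279, 1009 and 1004 in *D. mauritiana* at stage 5. *CG44005* had overlapping levels in eggs, 660.2, 813 and 1036 in *D. sechellia* and 712, 1387 and 979 in *D. mauritiana*, and read 746, 506 and 1052 against 32.7, 24.9 and 45.0 at stage 5.

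Eggs of reciprocal F1 mothers gave a background, since both kinds of mother are hybrid at every autosome. Between (*sec* x *mau*) x *sec* and (*mau* x *sec*) x *mau* stage 2 embryos, limma called 2 of 4162 autosomal genes (0.0481%). At an unadjusted limma p below 0.05 there were 583 of the 4162. Genes of the same embryos are not independent, and whether this count exceeds chance was not tested. edgeR on recovered reads also called 2 while DESeq2 called 12. These groups held 3 embryos each, against 6 in each stage 5 cross, and are of another stage. The few calls thus do not show that the eggs are alike. Both genes, *CG11825* on 2R and the zinc finger gene *Plzf* on 2L, were higher in (*sec* x *mau*) x *sec*. *CG11825* read 160.4, 126 and 72.2 in (*sec* x *mau*) x *sec* and 0.595, 0.550 and 0.558 in (*mau* x *sec*) x *mau*. *CG11825* was also called at stage 5 between *sec* x *mau* and *mau* x *sec* (log2 difference 0.68, limma adjusted p = 0.032), though not in the *D. mauritiana* mapping. It went against the mother, since its species log2 difference was -2.79 at stage 5 but 5.48 at stage 2.

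The piRNA pathway, which silences transposons in the germline through small RNAs bound to Piwi proteins, was the most often called of the lists. Of its 15 members, 12 were called in the *D. sechellia* mapping (background 42.9%) and 11 in both mappings (background 36.1%). Of the 11, 6 were higher and 5 lower in *sec* x *mau*, so the list as a whole moved in both directions. Its median log2 difference was 0.34 against -0.02 over all members. Of the 12, 8 followed the mother and none went against it, beside 49.6% and 3.88% of all called members. *qin*, a Tudor domain partner of the ping-pong cycle, lies on arm 3R, on scaffold 5 with a listed interval of 5430042-5430323 on the minus strand. *qin* read 283, 309.9 and 489 in *sec* x *mau* and 9.48, 14.2 and 18.2 in *mau* x *sec*, without overlap (log2 difference 4.60 ± 0.19, limma adjusted p = 1.2e-11).

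*del* (deadlock), a partner of Rhino at piRNA clusters, showed the opposite direction. It lies on arm 2L, on scaffold 18 with a listed interval of 1067282-1067443 on the minus strand. *del* read 21.5, 27.0 and 50.2 in *sec* x *mau* and 471, 505 and 661 in *mau* x *sec* (log2 difference -4.17 ± 0.18, limma adjusted p = 2.7e-11). In eggs it had read 1651, 1238 and 1614 in *D. sechellia* and 1498, 2522 and 1931 in *D. mauritiana*, which overlap, while at stage 5 the 2 species stood at 35.2, 25.9 and 50.8 in *D. sechellia* and 919, 1367 and 1139 in *D. mauritiana*. The transcript thus nearly disappeared by stage 5 in *D. sechellia* and in embryos of *D. sechellia* mothers, and remained in *D. mauritiana* and in embryos of *D. mauritiana* mothers.

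Further genes of the pathway split in the same manner; those named here beyond *qin*, *del* and *piwi* were chosen after their values were seen. *krimp*, a Tudor domain protein of nuage, read 419, 516 and 631 in *sec* x *mau* and 23.0, 56.7 and 69.4 in *mau* x *sec* (log2 difference 3.40 ± 0.21). *zuc*, the nuclease that cuts piRNA precursors, had a log2 difference of 2.34 ± 0.09, *Gasz*, its mitochondrial scaffold, of 2.29 ± 0.15, and *piwi* of 1.22 ± 0.19. The *mau* allele of *krimp* was near 0 when it came from the father, with a mean of 1.17 in *sec* x *mau* against 49.7 from the mother in *mau* x *sec*. In the other direction, *papi*, a mitochondrial Tudor protein, had -2.64 ± 0.23, the helicase *spn-E* -1.19 ± 0.21 and the helicase *armi* -0.75 ± 0.15. *SoYb*, which was not on the list, read 14.3, 32.6 and 40.99 in *sec* x *mau* and 318, 408 and 459 in *mau* x *sec* (log2 difference -3.71 ± 0.20). Levels of *mael*, *shu* and *aub* differed between the crosses by log2 differences of -0.04, 0.13 and 0.34, none of them called. Of 11 germ plasm and pole cell members, 4 (36.4%, near the 36.1% of all members) were called in both mappings, 2 higher and 2 lower, with *piwi* and *capu* the largest. The summed signal of the germ plasm markers *nos*, *pgc*, *gcl* and *osk*, none of them called, was 408-678 in *sec* x *mau* and 232-582 in *mau* x *sec*, and its part in these differences was not tested.

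**Figure D4:**
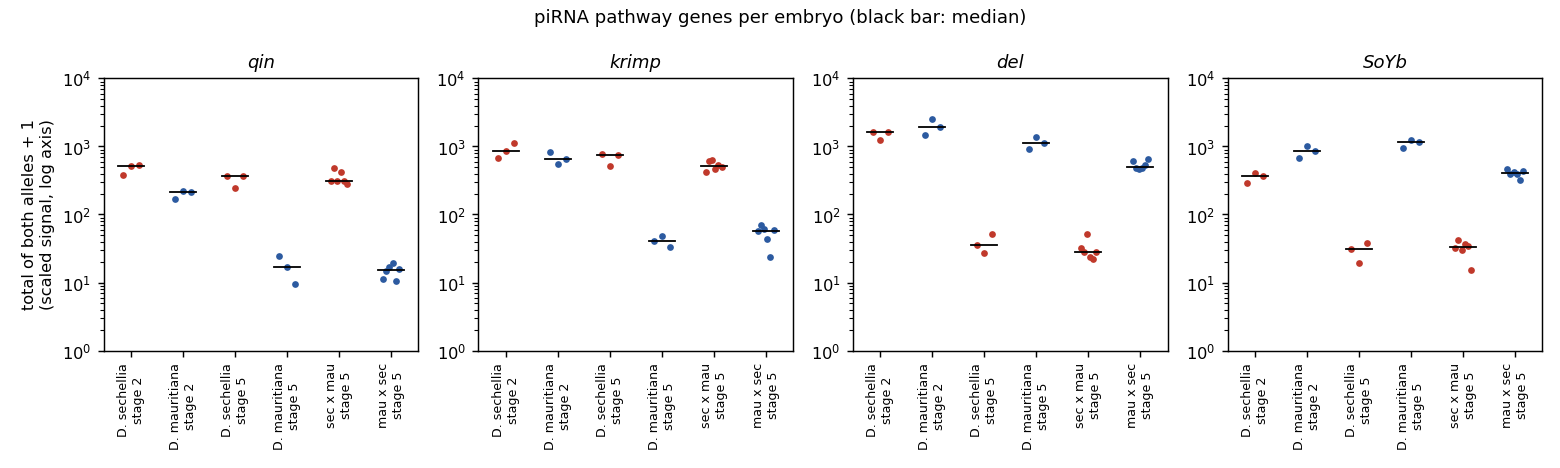
Totals of both alleles + 1 (scaled signal, log axis) per embryo for *qin*, *krimp*, *del* and *SoYb* in the parental species at stages 2 and 5 and in the hybrids at stage 5. Red marks *D. sechellia* and embryos with a *D. sechellia* mother, blue the *D. mauritiana* counterparts, bars are medians of 3 or 6 embryos, and at stage 5 each cross lies on the same side as its mother's species, with *mau* x *sec* below *D. mauritiana* for *del* and *SoYb*.

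The mitochondrial ribosome was the list with the most members. Of its 57 mitochondrial ribosomal protein genes, 27 were called in both mappings (47.4%, against 36.1% of all members), 10 higher and 17 lower in *sec* x *mau*. Of the 29 called in the *D. sechellia* mapping, 20 followed the mother and none went against it. Of all called members, 49.6% followed the mother and 3.88% went against it. *mRpL41* read 302, 387 and 419 in *sec* x *mau* and 69.0, 86.6 and 106 in *mau* x *sec* (log2 difference 2.07 ± 0.12), and *mRpL12* 62.5, 85.8 and 100.4 in *sec* x *mau* and 281, 324 and 363 in *mau* x *sec* (-1.93 ± 0.13). Neither gene had overlapping groups. Of 43 nuclear respiratory chain genes, 20 (46.5%) were called in both mappings, 9 higher and 11 lower, all but *ND-B14* by less than 2-fold in the *D. sechellia* mapping. *ND-B14*, a complex I subunit, read 296, 383 and 448 in *sec* x *mau* and 772, 806 and 921 in *mau* x *sec* (log2 difference -1.14 ± 0.10). The second named gene, *COX7A*, had -0.77 in the *D. sechellia* mapping and -2.08 in the *D. mauritiana* mapping.

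Of 52 cytoplasmic ribosomal protein genes, 15 were called in both mappings (28.8%, against 36.1% of all members), 14 of them lower in *sec* x *mau*. The median log2 difference over the list was -0.17. In the *D. sechellia* mapping 4 followed the mother, 4 went against it and 12 called genes had no called species difference. Among all called members 49.6% followed the mother and 3.88% went against it. *RpL40*, made as a fusion with ubiquitin, read 12957, 14429 and 16512 in *sec* x *mau* and 18680.1, 20406 and 21944 in *mau* x *sec* (log2 difference -0.49 ± 0.07). The 1 called higher, *RpS19b*, is a germline paralog in *D. melanogaster* and had a log2 difference of 2.08 ± 0.41. Among 17 proteasome genes, 10 (58.8%) were called in both mappings, 3 higher and 7 lower. The 2 largest, *Rpt6R* (2.50 ± 0.38) and *Rpt3R* (1.44 ± 0.29), are testis paralogs of regulatory ATPases in *D. melanogaster*, whereas core subunits such as *Prosalpha7* (-0.86) and *Prosalpha2* (-0.68) were lower.

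DNA replication licensing genes load and fire the replicative helicase. Of 15 members, 9 were called in both mappings (60%, against 36.1% of all members), 2 higher and 7 lower in *sec* x *mau*. *Orc4*, of the origin recognition complex, read 67.6, 102 and 223 in *sec* x *mau* and 289, 349 and 387 in *mau* x *sec* (log2 difference -1.67 ± 0.22). *Psf1*, of the GINS complex, differed by -1.02 ± 0.17 and its groups overlapped. A list meant for proteolysis and detoxification enzymes had 24 members, of 89 autosomal genes in the table, and no protease gene was among the 24: they are *Adh*, cytochrome P450, glutathione S-transferase and *Ugt* genes, and *Cypl*, a cyclophilin-like gene taken in by its name and not called. Of these 24, 12 (50%) were called in both mappings, 4 higher and 8 lower. In the *D. sechellia* mapping 12 of the 14 called followed the mother, beside 49.6% of all called members. *Cyp4p2*, a cytochrome P450, read 50.8, 65.8 and 104 in *sec* x *mau* and 0, 2.53 and 12.8 in *mau* x *sec*. *Cyp6a23* read 12.1, 24.6 and 35.0 in *sec* x *mau* and was at 0 in 4 of 6 *mau* x *sec* embryos. Genes of these tandem families, *Mal-A5* and *alpha-Est5* included, have close copies between which reads can be split, and their values are uncertain in this respect.

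**Figure D5:**
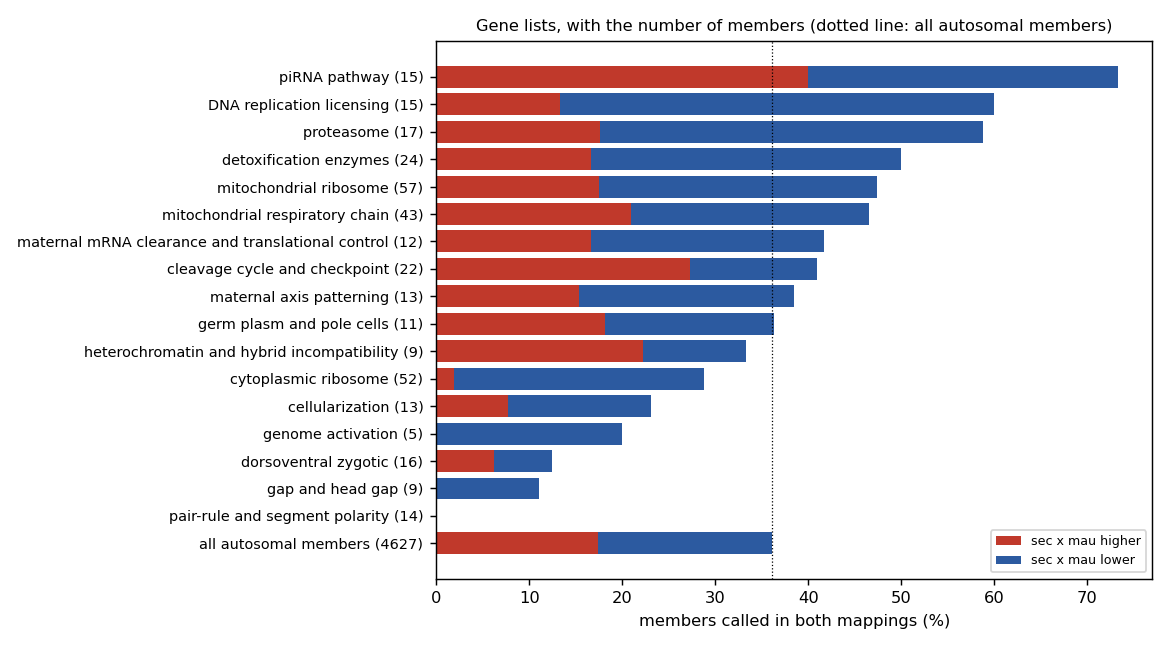
Percent of each list's members called in both mappings (horizontal axis), red for higher and blue for lower in *sec* x *mau*, with the number of members in parentheses. The dotted line at 36.1% is the share over all autosomal members, the piRNA pathway stands at 73.3%, and no pair-rule or segment polarity gene was called in both mappings.

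Maternal patterning and cell cycle genes were called about as often as all members, of which 36.1% were called in both mappings. Of 13 maternal axis patterning members 5 (38.5%) were called in both mappings. *Tl*, the receptor of the dorsoventral pathway, read 1010.4, 1703 and 3935 in *sec* x *mau* and 479, 647 and 883 in *mau* x *sec* (log2 difference 1.53 ± 0.26). *tor*, the receptor kinase of the embryo's ends, read 11.7, 26.0 and 47.5 in *sec* x *mau* and 80.2, 95.6 and 188 in *mau* x *sec* (-2.03 ± 0.31), although eggs of *D. sechellia* held more of it, with 2137, 1862 and 1874, than eggs of *D. mauritiana* with 1141, 1459.6 and 1385. Both genes followed the mother's species at stage 5. Of 22 cleavage cycle and checkpoint members 9 (40.9%) were called in both mappings, with *twe*, a Cdc25 phosphatase, highest at 1.25 ± 0.31 and *tws*, a phosphatase 2A subunit, lowest at -1.06 ± 0.25. Of 12 genes of maternal mRNA clearance and translational control 5 (41.7%) were called, all by less than 2-fold, among them *tral* (-0.52 ± 0.11) and *Not1* (0.48 ± 0.10). Of 9 heterochromatin and hybrid incompatibility members 3 were called in both mappings, *Lhr* (0.49 ± 0.12), *egg* (0.22) and *Nup98-96* (-0.32 ± 0.08).

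Zygotic patterning genes differed least often, beside 36.1% of all members called in both mappings. Of 14 pair-rule and segment polarity members none was called in both mappings and 2 in the *D. sechellia* mapping. Of 9 gap and head gap genes 1 was called in both mappings, *croc* (-0.70 ± 0.20), of 16 zygotic dorsoventral genes 2, *rho* (-0.50 ± 0.14) and *sim* (0.62 ± 0.24), and of 5 genome activation genes 1, *grh* (-0.53 ± 0.13). *sim*, the midline regulator, passed only just (limma adjusted p = 0.046). None of these 4 had a called species difference, and their mother's allele shares were 49.4-52.0%. Cellularization had 3 of 13, *halo* and *scra* lower and *bnk* higher. *bnk*, which restrains the closing of the new cells, read 401, 603 and 886 in *sec* x *mau* and 197, 399 and 509 in *mau* x *sec* (log2 difference 0.83 ± 0.23), with overlapping groups, and its *sec* allele was the higher one in both directions, 538 of *sec* and 111 of *mau* in *sec* x *mau*, 301 of *sec* and 72.1 of *mau* in *mau* x *sec*.

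Over all 607 mostly zygotic members, 130 (21.4%) were called in both mappings, against 35.3-39.7% in the other 4 classes by change between the stages. The 4 with the largest difference were *alpha-Est5*, *CG10887*, *CG30440* and *nrv2*. *alpha-Est5*, a carboxylesterase gene, read 482, 729.6 and 1015 in *sec* x *mau* and 70.4, 92.8 and 119 in *mau* x *sec* (log2 difference 2.91 ± 0.16). Eggs of *D. sechellia* already held 175, 197 and 217 of it, but those of *D. mauritiana* only 1.77, 8.63 and 5.02. In *mau* x *sec* its *mau* allele, from the mother, averaged 89.2 and its *sec* allele 6.63. The mother's allele held 95.3% and 93.7% of its reads in the 2 crosses. *CG30440* likewise had 88.7% and 96.4% from the mother. *CG10887*, at 0 in all 6 parental eggs, read 20.5, 39.0 and 55.2 in *sec* x *mau* and 109, 172 and 222 in *mau* x *sec* (-2.14 ± 0.22), where the mean signal of its paternal *sec* allele was 125 and that of its maternal *mau* allele 46.8. *nrv2*, a sodium pump subunit, was low throughout and its groups overlapped.

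Members that went against the mother were few, and the 4 largest had differences under 4-fold. *capu*, a formin that organizes the oocyte cytoskeleton, read 22.5, 26.2 and 38.5 in *sec* x *mau* and 53.0, 69.0 and 165 in *mau* x *sec* (log2 difference -1.55 ± 0.25), while at stage 5 *D. sechellia* had 33.4, 73.9 and 45.2 and *D. mauritiana* 0, 11.3 and 8.58. Its *sec* allele carried the transcript from either parent, with mean signals of 27.0 from the mother in *sec* x *mau* and 85.5 from the father in *mau* x *sec*, against 0.425 and 2.36 for the *mau* allele. *WRNexo*, an exonuclease gene, had the same pattern, with *sec* allele means of 69.3 from the mother in *sec* x *mau* and 142 from the father in *mau* x *sec* (total -1.27 ± 0.31, overlapping groups). *CG32037*, at -1.28 ± 0.25, also had its highest allele mean, 73.4, from the paternal *sec* copy in *mau* x *sec*. *CG43693* was the 1 with a positive difference (1.495 ± 0.49), with overlapping groups, and edgeR and DESeq2 on recovered reads did not call it (adjusted p = 0.077 and 0.11).

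The cross between *D. simulans* and *D. mauritiana* offered a second set of reciprocal hybrids from other embryos. Between *sim* x *mau* and *mau* x *sim*, 2459 of 4787 autosomal genes (51.4%) were called, 1161 (24.3%) higher and 1298 (27.1%) lower in *sim* x *mau*. Of 1626 members called in both mappings here and tested there, 753 (46.3%) were called with the same sign and 246 (15.1%) with the opposite one, where *D. mauritiana* is the father of the first cross in both. *KFase* had -6.75 in *sim* x *mau* minus *mau* x *sim* beside -5.58 here, and *del* -3.24 beside -4.17, whereas *Mal-A5* had -0.07 beside -7.33 and was not called there. These 3 genes were picked for this comparison after their values were seen.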

How the data were processed

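RNA-seq of single embryos was used as the authors deposited it. Per the study's methods and the labels, they trimmed reads with cutadapt 1.7.1, aligned them with TopHat2 2.0.13 to the genomes of both species, called variants with GATK and other tools, and summed reads at variant sites per gene and allele. The deposited values are a scaled signal: the authors divided reads per gene by an upper quantile factor per embryo. All values (100%) lay within 0.01 of whole multiples of 1 step per embryo and mapping, from which reads were recovered for the edgeR and DESeq2 alternatives. Per the methods, reads of parental species came from an earlier data set, so the cross and species differences rest on different collections.

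Totals were fitted with limma 3.58.1 in R 4.3.3 (eBayes with trend, pseudocount 1, mean total of at least 10, Benjamini-Hochberg, threshold 0.05), on the embryos compared only. edgeR 4.0.16 and DESeq2 1.42.0 served as alternatives, beside other pseudocounts, filters, TMM factors, the other mapping, labelled sex, blocking by replicate number and fits without single embryos. The steps were tested on simulated data. Members and gene lists were chosen with earlier results of these data known. Named genes are the 8 largest differences in each direction among non-overlapping members called in both mappings, the 2 largest per list, the 4 largest against the mother and the 4 largest mostly zygotic ones. A list of 3 translation factors had 2 members, neither called. Genome sequence was not used here.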

Additional observations from a re-analysis of the deposited data

Results flagged for a closer look

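In 138 groups of 6 embryos (named genes, markers and whole-library measures in each cross), 16 had 1 embryo set apart from the other 5 by more than Dixon's critical value for the gap over the range, which chance gives in about 1 of 20. In *mau* x *sec*, replicate 4 read 18.2 for *nos*, the posterior determinant of germ plasm, against 291-368 in the others, 38.3 for *osk*, 164 for *CG32037* and 12.8 for *Cyp4p2*. *mau* x *sec* replicate 2 read 174 for *croc*, against 288-337, and replicate 5 had 50.3% of the reads of mostly zygotic members from the father, against 49.2-49.6%.

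In *sec* x *mau*, replicate 3 stood apart for *Orc4* (223), *WRNexo* (159), *del* (50.2) and *nrv2* (25.9), each as the highest. Replicate 2 was highest for *ftz* (3258), *sim* (175) and the eggshell gene *Cp15* (2.05, the others at 0). Replicate 1 was highest for *capu* (38.5), replicate 4 for *CG11034* (11.2) and replicate 6 for *CG43693* (181). Of these genes, *CG43693* and *sim* lost their calls without some single embryos.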

How the results depend on the processing

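The count of members called between the crosses stayed within 1.5 times of 1985 under other pseudocounts, filters, TMM factors, edgeR (2001), DESeq2 (2055), the *D. mauritiana* mapping (2027) and labelled sex as a covariate (1973), and was 1827-1994 with each embryo left out. It was 1294 with embryos labelled XX only, 1251 with those labelled XY only, and 1019 without the 4 *mau* x *sec* embryos whose X-linked reads or *Sxl* and *msl-2* levels go against their labels, each with fewer embryos. As the labels of these 4 embryos are in doubt, the sex covariate and the fits by label do not adjust for sex. Members that follow the mother numbered 763-1072 with embryos left out and 393 with the species difference at stage 2. Species calls at stage 5 ranged over 1287-2440 (1287 without *D. mauritiana* replicate 2) and at stage 2 over 517-1280, with 517 without *D. mauritiana* replicate 3, 616 without *D. sechellia* replicate 1 and 729 without *D. sechellia* replicate 2. Calls between eggs of F1 mothers ranged over 1-9 and were 12 with DESeq2. Same-numbered embryos of the 2 crosses had deviations correlated by -0.10 to 0.068, so the numbers do not pair them; with a replicate block 1795 members were called. No named difference changed sign in 1239 recomputed values, and 45 values of 18 genes lost the call; *sim* lost it in 9 of the 12 fits that leave out 1 embryo, at limma adjusted p of 0.056-0.11.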
